A study of Mus musculus with 6 samples.

Results

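The genes of the collagen chains, and of the enzymes and chaperone that fold, trim and cross-link collagen, were compared between differentiated brown preadipocyte cultures labelled MICT1 KO and their Scr controls. The members were the 46 of 13283 genes in the table whose symbols name a collagen chain, lysyl oxidase or a lysyl oxidase-like enzyme (Lox, Loxl1 to Loxl4), a prolyl 4-hydroxylase alpha subunit (P4ha), a lysyl hydroxylase (Plod), a procollagen C-endopeptidase enhancer (Pcolce, Pcolce2), Serpinh1 or Bmp1. The rule reads the symbols alone. Of these, 31 were collagen chains, divided into 10 fibrillar, 8 basement membrane and 13 other chains, and 15 were modifying enzymes or their helpers. RefSeq lists 59 mouse protein-coding symbols of this form, and the 13 others, Col11a1 and Col10a1 among them, were not analysed here.

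Both groups were made from an immortalized line of mouse brown preadipocytes that stably carries Cas9, and each had 3 libraries of total RNA. The MICT1 KO libraries came from pools of cells that received sgRNA against MICT1 by lentivirus and were sorted for GFP, while the Scr libraries, labelled control and WT, came from cells that received scrambled sgRNA. All 6 cultures were taken through adipocyte differentiation and, at day 6, treated for 6 h with 10 µM forskolin, which activates adenylyl cyclase and raises cAMP, so there was no unstimulated group. The cells are uncloned pools of a single line, the labels do not tell which sgRNA each MICT1 KO library received, and the transcript of MICT1 was not analysed here, which leaves the knockout unchecked in these libraries. Nothing states that the libraries of a group came from separate pools or days, so the p-values below cover the spread between these cultures, which may be technical.

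The value of a gene is a normalized signal whose normalization is not given. It was read as an estimate of the gene's reads divided by a scaling factor of the library. The values of a library summed to between 16104616 and 16616825, which on this reading corresponds to about 15440310 to 17917650 reads. Differences are given as log2 fold changes of value + 1, MICT1 KO minus Scr, with their standard error (SE) from limma-trend and a p-value adjusted over all 12507 genes that reached a value of 10 in 3 or more libraries. A gene "rose" or "fell" where the adjusted p was under 0.05. Levels of different genes are compared only per length, as RPKM (reads per kilobase of the longest coding transcript, scaled to the summed signal of the library).

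Collagen chains are made in the endoplasmic reticulum, where prolyl and lysyl hydroxylases modify them and the chaperone HSP47 (Serpinh1) holds the chains as they wind into a helix. After secretion, proteinases trim the ends of fibrillar procollagen so that fibrils can form, and lysyl oxidases then cross-link them. Fibrillar collagens (types I, III and V) build the interstitial matrix, type IV collagen builds the sheet of the basement membrane that surrounds each mature adipocyte, and type VI collagen forms beaded filaments next to it that are abundant in adipose tissue.

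Rises prevailed among the modifying genes, while the collagen chains were called in both directions. Of the 41 members tested, 21 rose and 13 fell in MICT1 KO, and 7 passed in neither direction. Of all 12507 genes tested, 56.9% were called, 28.5% as higher and 28.3% as lower, so calls were common everywhere in this comparison. Among the 26 tested collagen chains 10 rose and 11 fell, with a median log2 fold change of -0.10, while 11 of the 15 modifying genes rose and 2 fell, with a median of 0.54. The median of all genes tested was -0.0053. At least 2-fold higher were 10 members, against 7.99% of all genes, and at least 2-fold lower were 7 members, all of them collagen chains, against 5.76% of all genes. The values of the groups did not overlap for 32 of the 41 members, and for 62.0% of all genes. Some members passed the minimum mainly through the group where they were high, so these counts describe the members that were tested and not all 46.

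**Figure D1:**
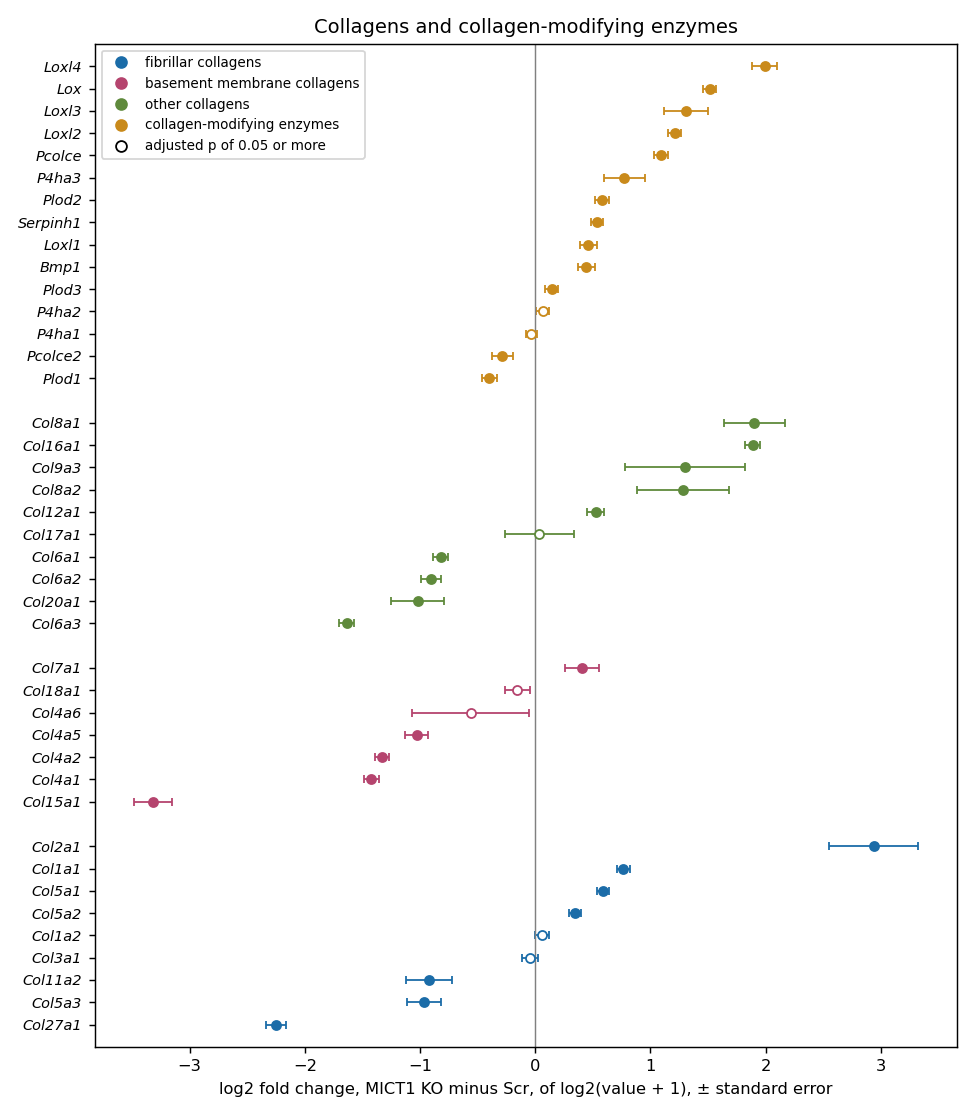
Each point is the log2 fold change of a tested member, MICT1 KO minus Scr on the log2(value + 1) scale, with its standard error as the bar, ordered within the 4 classes shown by color. Open circles mark the members with an adjusted p of 0.05 or more. The modifying genes lie mostly to the right of 0, from -0.40 for Plod1 to 1.99 for Loxl4, and 4 basement membrane chains lie at -1.03 or below.

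The 5 members that did not reach the minimum were Col24a1, Col4a3, Col23a1, Col14a1 and Col28a1, whose values ranged from 0.953 to 18.7 in the 6 libraries, and no difference could be read at that depth. Among the tested members, 4 had a Scr value under 10 (Col2a1, Col4a6, Col8a2 and Col9a3) and 1 of these, Col4a6, also had a MICT1 KO value under 10.

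Markers of cell types moved between the same groups. All 8 adipocyte markers, which define the labelled cell type, fell, with a summed signal of 119145 to 141603 in the Scr libraries and 14345 to 20642 in the MICT1 KO libraries. Adipoq, the adipocyte hormone adiponectin, had signals of 733, 468 and 672 in Scr against 7.63, 3.16 and 5.18 in MICT1 KO, so in MICT1 KO this marker of the labelled cell type was below the minimum value of 10 in every library. The summed signal of the 6 preadipocyte and fibroblast markers analysed here was 4641 to 5420 in Scr and 14265 to 14624 in MICT1 KO, of which Pdgfrb, Ly6a and Dcn rose and Pdgfra and Dlk1 fell. Dcn, a proteoglycan that binds collagen fibrils, had signals of 409, 407 and 278 in Scr against 9571, 9836 and 9713 in MICT1 KO. Nearly all of the rise in the preadipocyte and fibroblast sum came from Dcn, since the changes of the other markers largely offset each other. Among the smooth muscle markers 4 of 5 were analysed, with sums of 410 to 437 in Scr and 353 to 381 in MICT1 KO, and Acta2 was the single gene to pass, as lower. The 3 macrophage markers analysed summed to 104 to 153 in Scr and 129 to 162 in MICT1 KO and none passed. Of the endothelial list Cdh5 alone was analysed, at 5.93 to 12.1 in Scr and 25.9 to 33.4 in MICT1 KO, where it rose. Cdh5 reached the minimum in 3 libraries only through its MICT1 KO values, so a rise was favoured in advance. The part of these shifts in the collagen results was not tested, and in such bulk RNA fewer cells of a type and less RNA per cell cannot be told apart.

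Col4a1 led the collagen chains in level per length in Scr, and Col1a1 led them in MICT1 KO. In Scr the highest was Col4a1 at 407 ± 24.0 RPKM (SD, n = 3), followed by Col6a1 at 300.4 ± 26.5 RPKM. Col4a2, Col1a1, Col6a3 and Col3a1 came next at 192 ± 9.94, 185 ± 7.06, 184 ± 16.9 and 181 ± 22.3 RPKM, and their ranges over the libraries overlapped. Col6a2 (119 ± 19.0 RPKM) and Col1a2 (110.3 ± 10.7 RPKM) were the next, also with overlapping ranges. In MICT1 KO the first place was held by Col1a1 at 316 ± 24.1 RPKM. Col3a1 at 175 ± 10.9, Col6a1 at 171 ± 15.4 and Col4a1 at 152 ± 15.1 RPKM followed, with ranges that overlapped between neighbours. The rank of Col4a1 went from 1 to 4, that of Col4a2 from 3 to 7 and that of Col6a3 from 5 to 9, whereas Col1a1 went from 4 to 1. With all annotated exons as length Col4a1 and Col1a1 were again first in Scr and in MICT1 KO. In MICT1 KO, however, Col3a1 was then 4 in place of 2 and Col4a1 was 3 in place of 4. Col4a2 was 5 in place of 7 and Col6a3 was 8 in place of 9 there, so the size of these falls in rank depends on the length used.

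Promoter sequences are shown for 3 members, the highest per length in Scr among those that rose, fell or did not pass and whose window upstream of the start overlaps neither an exon nor the gene's own annotated span. RefSeq promoters (GRCm38.p6) were found for 33 of the 46 members, of which 8 had a window of 250 bases that met both conditions. Capitals mark GC boxes (GGGCGG) and TATA boxes (TATAAA) on either strand, and CCAAT was searched too. The window of Serpinh1 is chr7:99353240-99353489 on the minus strand, that of Col6a2 chr10:76623631-76623880 on the minus strand and that of Col3a1 chr1:45311288-45311537 on the plus strand.
Serpinh1 (rose): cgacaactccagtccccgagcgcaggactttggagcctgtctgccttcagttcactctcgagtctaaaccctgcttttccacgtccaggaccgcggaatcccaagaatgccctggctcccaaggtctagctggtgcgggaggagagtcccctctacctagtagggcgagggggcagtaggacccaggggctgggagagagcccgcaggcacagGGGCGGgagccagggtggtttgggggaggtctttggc
Col6a2 (fell): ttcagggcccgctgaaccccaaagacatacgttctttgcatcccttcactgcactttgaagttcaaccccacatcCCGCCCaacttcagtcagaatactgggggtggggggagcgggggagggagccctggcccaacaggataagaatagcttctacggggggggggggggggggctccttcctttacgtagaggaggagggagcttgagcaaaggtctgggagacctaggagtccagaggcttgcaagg
Col3a1 (did not pass): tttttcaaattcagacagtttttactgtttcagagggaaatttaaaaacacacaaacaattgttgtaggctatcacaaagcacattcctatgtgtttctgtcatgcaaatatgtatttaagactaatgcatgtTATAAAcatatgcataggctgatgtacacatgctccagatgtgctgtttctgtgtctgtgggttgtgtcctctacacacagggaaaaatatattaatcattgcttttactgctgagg
The windows of Serpinh1 and Col6a2 each hold 1 GC box although their genes moved in opposite directions, and that of Col3a1 holds 1 TATA box. A GC box was present in 23 of the 33 members (69.7%), in 60.6% of the tested genes with a promoter and in 33% of all promoters of this length. Of the 21 members that rose only 10 had a promoter, and a GC box was in 9 of these. It was in 8 of the 13 that fell. CCAAT was in 10 of the 33 members (30.3%), in 37.7% of the tested genes with a promoter and in 34.5% of all promoters. A TATA box was in 4 members (12.1%), in 6.34% of the tested genes with a promoter and in 13% of all promoters. By direction, CCAAT was in 3 of the 10 that rose and in 4 of the 13 that fell. For the TATA box these were 0 and 2. These matches describe the letters of the windows, and motifs that overlap were each counted.

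The fibrillar chains split by gene. Of 9 tested, 4 rose (Col1a1, Col5a1, Col5a2 and Col2a1), 3 fell (Col27a1, Col5a3 and Col11a2) and 2 did not pass (Col3a1 and Col1a2). Their median log2 fold change was 0.059. Over all genes tested, 28.5% rose and 28.3% fell. Col1a1, which encodes the chain that makes up most of a type I collagen molecule, had signals of 18329.8, 18255 and 17281 in Scr against 32997, 30794 and 27994 in MICT1 KO. All MICT1 KO values lay above all Scr values, and Col1a1 rose 1.70-fold, with a log2 fold change of 0.77 (SE 0.060, adjusted p = 7.05e-10). Col1a2, the partner chain, had signals of 10557, 9308 and 9076 in Scr against 10414, 9617 and 10062 in MICT1 KO, and the groups overlapped. Its log2 fold change was 0.059 (SE 0.059, adjusted p = 0.417). Col3a1, the chain of type III collagen, had signals of 18417, 16028 and 14846 in Scr against 15813, 14909 and 16843 in MICT1 KO, which also overlapped, with a log2 fold change of -0.047 (SE 0.068, adjusted p = 0.572). Type I and type III collagen share fibrils in many tissues, and of their 3 chains Col1a1 alone passed the test.

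Type V collagen sits inside type I fibrils and regulates their diameter. Its main chains, Col5a1 and Col5a2, rose. Col5a1 had signals of 5477, 5402 and 5213 in Scr against 7778, 8027 and 8351 in MICT1 KO, without overlap, and a log2 fold change of 0.59 (SE 0.052, adjusted p = 5.19e-09). Col5a2 was at 7954, 7708 and 7679.7 in Scr against 9637, 9816 and 10235 in MICT1 KO, again without overlap, with a log2 fold change of 0.35 (SE 0.051, adjusted p = 6.58e-06). Col5a3, the chain of a rarer form, went the other way, at 346, 334 and 290.0 in Scr against 137, 177 and 183 in MICT1 KO, with a log2 fold change of -0.97 (SE 0.14, adjusted p = 7.93e-06).

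The largest fall among the fibrillar chains was that of Col27a1, a fibril-forming chain known from cartilage. Its signals were 1351, 1213 and 1305 in Scr against 272, 275 and 263 in MICT1 KO. The MICT1 KO libraries were close to each other and 4.78-fold lower on average, with a log2 fold change of -2.25 (SE 0.087, adjusted p = 6.25e-15). Col11a2, a minor fibrillar chain of cartilage, fell from 158, 171 and 226 in Scr to 73.4, 125 and 96.4 in MICT1 KO, with a log2 fold change of -0.92 (SE 0.20, adjusted p = 0.000613). Col2a1, the main collagen chain of cartilage, went up from values near the minimum, at 9.89, 11.1 and 5.09 in Scr against 89.6, 61.1 and 63.2 in MICT1 KO. Its log2 fold change of 2.94 (SE 0.39, adjusted p = 1.64e-06) had the widest error in its class. Col2a1 reached the minimum in 3 libraries only through its MICT1 KO values, so a rise was favoured in advance. It is also counted among the fibrillar chains that rose. Of the chondrocyte markers, Sox9 rose, Matn3 did not pass (log2 fold change -0.21, adjusted p = 0.711) and Comp was not tested. The 3 genes summed to 1194 to 1461 in Scr and 1497 to 1581 in MICT1 KO, nearly all of it Sox9. Among these cartilage chains, Col27a1 and Col11a2 fell and Col2a1 rose.

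**Figure D2:**
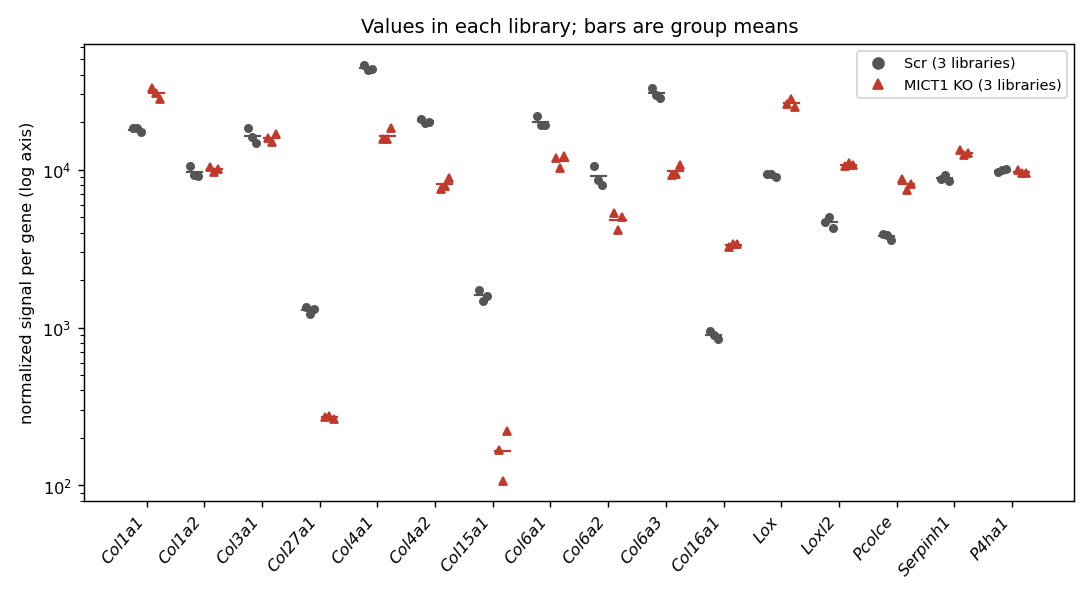
Points are the normalized signal of 16 members in each library on a log axis, circles for the 3 Scr and triangles for the 3 MICT1 KO libraries, and short bars are group means. The groups overlap for Col1a2, Col3a1 and P4ha1, whereas those of Col4a1, Col6a3, Col15a1, Col27a1 and Lox are far apart.

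The basement membrane chains were mostly lower. Of 7 tested, 4 fell, all at least 2-fold (Col4a1, Col4a2, Col15a1 and Col4a5), 1 rose (Col7a1) and 2 did not pass. Their median log2 fold change was -1.03. Over all genes tested, 28.3% fell, 5.76% at least 2-fold, and 28.5% rose. Col4a1 and Col4a2 encode the chains of the common type IV network. Col4a1 had signals of 46203, 42619.5 and 43243 in Scr against 15565, 15549 and 18261 in MICT1 KO. Col4a2 had signals of 21097, 19687 and 20049.5 in Scr against 7501, 7849.5 and 8905 in MICT1 KO. In both genes every MICT1 KO value lay below every Scr value, and the spread within a group was small beside the gap. The log2 fold change was -1.42 (SE 0.063, adjusted p = 6.44e-14) for Col4a1, which was 2.67-fold lower, and -1.33 (SE 0.061, adjusted p = 9.83e-14) for Col4a2. The genes lie head to head on chromosome 8 (GRCm38) and share a promoter region, their RefSeq spans overlapping by 85 bases. Col4a5, a chain of a type IV network with a narrower distribution, was at 855, 855 and 851 in Scr against 382, 391 and 486 in MICT1 KO and fell by 1.03 on the log2 scale (SE 0.097, adjusted p = 1.18e-08). Its neighbour on chromosome X, Col4a6, which also starts head to head with it at a distance of 1274 bases, was low, at 9.89, 25.0 and 15.3 in Scr against 12.4, 8.43 and 10.4 in MICT1 KO, and did not pass (adjusted p = 0.362).

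The largest fall of all members was that of Col15a1, a collagen with glycosaminoglycan chains that lies on the outer face of basement membranes. Its signals were 1738, 1481 and 1578 in Scr against 168, 107 and 223 in MICT1 KO, a 9.63-fold lower mean, with a log2 fold change of -3.32 (SE 0.16, adjusted p = 3.89e-13). Col18a1, its closest relative and the precursor of endostatin, was at 441, 393 and 367 in Scr against 332, 368 and 377 in MICT1 KO with overlapping groups. It did not pass, with a log2 fold change of -0.16 (SE 0.11, adjusted p = 0.239). Col7a1, the chain of anchoring fibrils, had signals of 309.6, 247 and 300.2 in Scr against 308, 498 and 348 in MICT1 KO, which overlapped. Its log2 fold change of 0.41 (SE 0.15, adjusted p = 0.0254) rested on the Scr 2 and MICT1 KO 2 libraries, since the adjusted p was 0.136 without the first and 0.231 without the second.

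The 3 type VI chains fell together. The 10 tested chains outside the fibrillar and basement membrane classes divided into 5 higher and 4 lower, with a median log2 fold change of 0.28. Over all genes tested, 28.5% were higher and 28.3% lower. Col6a1, Col6a2 and Col6a3 assemble into a single type VI molecule. Col6a3 had signals of 33126, 29670.0 and 28563 in Scr against 9270.2, 9335 and 10746 in MICT1 KO and the largest change of them, a log2 fold change of -1.64 (SE 0.065, adjusted p = 9.61e-15). Col6a1 was at 21853, 19298 and 19289 in Scr against 11779, 10271 and 12250.0 in MICT1 KO, with a log2 fold change of -0.82 (SE 0.066, adjusted p = 1.01e-09). Col6a2 was at 10559.6, 8604 and 8049 in Scr against 5325, 4137 and 5013 in MICT1 KO, with a log2 fold change of -0.91 (SE 0.087, adjusted p = 1.55e-08). No library of either group crossed into the other for any of these chains. Col6a2 and Col6a1 lie on the same strand of chromosome 10, 85161 bases apart, and Col6a3 is on chromosome 1. The fourth chain to fall was Col20a1, at low signals of 95.9, 125 and 158 in Scr against 56.2, 72.7 and 53.9 in MICT1 KO. Its log2 fold change was -1.02 (SE 0.23, adjusted p = 0.000677), without overlap.

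Of the 4 tested collagens that attach to the surface of fibrils, 3 rose (Col16a1, Col12a1 and Col9a3) and Col20a1, above, fell. Col16a1 had signals of 957, 897 and 852 in Scr against 3230.0, 3405 and 3376 in MICT1 KO, a 3.70-fold higher mean, with a log2 fold change of 1.89 (SE 0.064, adjusted p = 8.07e-16). Col12a1 was at 3158, 3379 and 2868 in Scr against 4013, 5082 and 4477 in MICT1 KO, with a log2 fold change of 0.53 (SE 0.074, adjusted p = 4.11e-06). Col9a3, a chain of the same kind from cartilage, had low and overlapping values of 19.8, 4.63 and 15.3 in Scr against 15.3, 43.2 and 38.4 in MICT1 KO. Its log2 fold change of 1.30 (SE 0.52, adjusted p = 0.0388) was no longer called without Scr 2, MICT1 KO 2 or MICT1 KO 3, with adjusted p of 0.219, 0.167 and 0.128. Both chains of type VIII collagen, a short-chain network collagen, rose from low levels. Col8a1 was at 50.4, 23.2 and 38.7 in Scr against 123, 149.6 and 137 in MICT1 KO, with a log2 fold change of 1.90 (SE 0.26, adjusted p = 3.28e-06). Col8a2 was at 19.8, 9.27 and 13.2 in Scr against 38.1, 31.6 and 33.2 in MICT1 KO, with a log2 fold change of 1.28 (SE 0.40, adjusted p = 0.00982). Col17a1, a membrane collagen of hemidesmosomes, did not pass, at 48.5, 46.3 and 33.6 in Scr against 32.4, 52.7 and 47.7 in MICT1 KO (adjusted p = 0.928).

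The modifying genes are described in the order in which their products act. The chaperone and the hydroxylases work inside the cell, and their log2 fold changes ran from -0.40 to 0.77. Serpinh1, whose promoter window is printed above, had signals of 8782, 9242 and 8487 in Scr against 13301, 12336 and 12821 in MICT1 KO, without overlap, and rose 1.45-fold with a log2 fold change of 0.54 (SE 0.053, adjusted p = 2.75e-08). Of the prolyl 4-hydroxylase alpha subunits, which make the hydroxyproline that stabilizes the helix, P4ha1 and P4ha2 did not pass. P4ha1 was at 9632, 9961 and 10042 in Scr against 9904, 9599 and 9465 in MICT1 KO, with a log2 fold change of -0.033 (SE 0.050, adjusted p = 0.600). P4ha2 was at 2964, 3153 and 2825 in Scr against 3084, 3083 and 3180.1 in MICT1 KO, with a log2 fold change of 0.065 (SE 0.058, adjusted p = 0.350). P4ha3, at much lower signals of 141, 105 and 95.7 in Scr against 181, 197 and 201 in MICT1 KO, rose by 0.77 on the log2 scale (SE 0.17, adjusted p = 0.000766).

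The lysyl hydroxylases passed in different directions. Plod2, which modifies lysines of the collagen telopeptides, was at 6701, 7178 and 6209.9 in Scr against 9930.1, 10562 and 9552 in MICT1 KO and rose, with a log2 fold change of 0.58 (SE 0.059, adjusted p = 3.75e-08). Plod1, which modifies lysines of the helix, was at 2180.0, 2241 and 2448 in Scr against 1722, 1741 and 1746 in MICT1 KO and fell, with a log2 fold change of -0.40 (SE 0.062, adjusted p = 1.35e-05). The values of Plod3, which also glycosylates hydroxylysine, were 4259, 4508 and 4107 in Scr against 4818, 4784 and 4607 in MICT1 KO. Its log2 fold change of 0.14 (SE 0.055, adjusted p = 0.0304) did not pass without Scr 1, Scr 3, MICT1 KO 1 or MICT1 KO 2, with adjusted p of 0.0719, 0.121, 0.0638 and 0.0692. The exons of Plod3 and Loxl3 overlap other genes over 11.9% and 11.6% of their length, more than those of any other member, and whether counting used the strand is not given in the sources used here.

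Removal of the C-terminal propeptide is the step that starts fibril formation. Bmp1, the proteinase that cuts it, was at 2540.0, 2125 and 1978 in Scr against 2834, 3151 and 3011 in MICT1 KO and rose, with a log2 fold change of 0.44 (SE 0.075, adjusted p = 3.76e-05). Pcolce, which enhances that cut, was at 3903, 3879 and 3610.4 in Scr against 8776, 7484 and 8112 in MICT1 KO and rose 2.14-fold, with a log2 fold change of 1.09 (SE 0.060, adjusted p = 2.27e-12). Its relative Pcolce2 was at 657, 675 and 574 in Scr against 528, 519 and 509 in MICT1 KO and fell, with a log2 fold change of -0.29 (SE 0.091, adjusted p = 0.0105), although the adjusted p was 0.0631 without Scr 2. For Pcolce every MICT1 KO value was above every Scr value.

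All 5 genes of the lysyl oxidase family rose, beside 28.5% of all genes, with log2 fold changes from 0.46 to 1.99. None of them overlapped between the groups, which held for 62.0% of all genes. The enzymes oxidize lysine side chains of collagen and elastin, the first step of cross-linking. Lox had signals of 9347, 9386 and 8943 in Scr against 26096, 28002 and 24989.6 in MICT1 KO, a 2.86-fold higher mean, with a log2 fold change of 1.51 (SE 0.055, adjusted p = 2.13e-15). Loxl2, whose targets include type IV collagen, was at 4646, 5021 and 4280.0 in Scr against 10556, 11016 and 10637 in MICT1 KO, with a log2 fold change of 1.21 (SE 0.058, adjusted p = 2.36e-13). Loxl4 was lower in level, at 189, 188 and 159 in Scr against 679.7, 743 and 711 in MICT1 KO, and had the largest change of the family, 3.98-fold, with a log2 fold change of 1.99 (SE 0.11, adjusted p = 3.02e-12). The MICT1 KO values of these enzymes all lay far above those of Scr. Loxl3 was at 151, 101 and 85.7 in Scr against 229, 309.7 and 285 in MICT1 KO, with a log2 fold change of 1.31 (SE 0.19, adjusted p = 5.34e-06). Loxl1, which is linked to elastic fibers, was at 1296, 1204 and 1085 in Scr against 1690.3, 1518 and 1718 in MICT1 KO, with a log2 fold change of 0.46 (SE 0.075, adjusted p = 2.37e-05). Per length, Lox went from 119 ± 3.67 to 341 ± 19.9 RPKM, and in MICT1 KO Serpinh1 was at 345 ± 11.4 and Col1a1 at 316 ± 24.1 RPKM.

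The shares of the library's signal were then summed over the genes of each class. In Scr the 31 chains made up 1.16% ± 0.0846 of the summed signal, and in MICT1 KO 0.828% ± 0.0248. Fibrillar chains held 0.361% ± 0.0249 in Scr and 0.460% ± 0.00876 in MICT1 KO. Basement membrane chains held 0.412% ± 0.0236 and 0.159% ± 0.0153, and other chains 0.391% ± 0.0375 and 0.210% ± 0.0117, in that order. The modifying genes held 0.349% ± 0.0118 in Scr and 0.574% ± 0.0103 in MICT1 KO. In none of these 5 sums did the groups overlap, and each had an exact two-sided permutation p of 0.1 (0.1 adjusted over the 5), the smallest that 3 against 3 libraries can give. Within the summed signal of the chains, the fibrillar part was 31.0% ± 0.405 in Scr and 55.5% ± 1.95 in MICT1 KO, and the basement membrane part 35.5% ± 0.873 and 19.1% ± 1.36. No test was run on these parts. A few genes decide the sums. Col4a1 and Col4a2 carry most of the basement membrane sum, and Col1a1, Col3a1 and Col1a2 most of the fibrillar one.

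**Figure D3:**
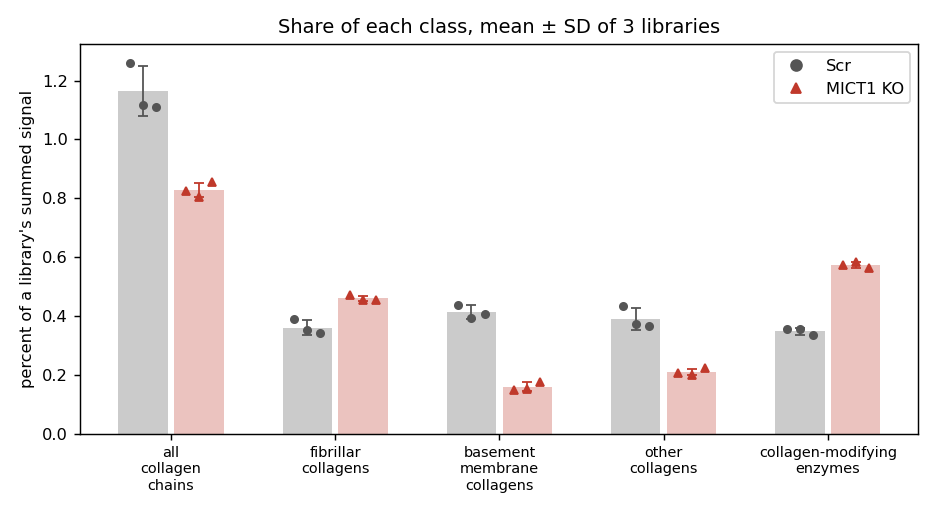
Bars are the mean percent of a library's summed signal held by each class in Scr (gray) and MICT1 KO (red), error bars the SD of 3 libraries, and points the libraries. The fibrillar and modifying classes are higher in MICT1 KO, and the sum of all chains, the basement membrane and the other chains are lower.

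Ratios between chains of the same collagen type, and of Col3a1 to Col1a1 from different types, were compared per length. The ratio of Col1a1 to Col1a2 in RPKM was 1.57, 1.77 and 1.72 in Scr against 2.86, 2.89 and 2.51 in MICT1 KO. On the log2 scale it was 0.75 ± 0.092 in Scr and 1.46 ± 0.11 in MICT1 KO, a difference of 0.71. The level of such a ratio depends on the lengths used, and with all annotated exons it was 1.82 in Scr and 2.53 in MICT1 KO on the log2 scale, with the same difference. Type I collagen in most tissues holds more of the first chain than of the second. The ratio of Col3a1 to Col1a1 moved the other way, from 1.07, 0.936 and 0.916 to 0.511, 0.516 and 0.641, a log2 difference of -0.81. With all annotated exons its log2 value in Scr was -0.71 in place of -0.041, so whether the chains are near equal in level cannot be read. For Col5a1 to Col5a2 the log2 ratio was -0.88 ± 0.023 in Scr and -0.64 ± 0.010 in MICT1 KO, a difference of 0.24. Col4a1 and Col4a2, which both fell more than 2-fold, shifted little against each other, with a log2 ratio of 1.08 ± 0.011 in Scr and 0.99 ± 0.035 in MICT1 KO and a difference of -0.093. For Col6a1 and Col6a2 it was 1.34 ± 0.11 in Scr and 1.43 ± 0.090 in MICT1 KO, with overlapping groups (difference 0.090, exact two-sided permutation p = 0.3). The other 4 ratios did not overlap between the groups and each had an exact two-sided permutation p of 0.1, or 0.125 adjusted over the 5 ratios, which the design cannot bring lower than 0.1. The fall of Col6a3 was larger than that of its partner chains, -1.64 beside -0.82 and -0.91, and this difference was not tested.

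**Figure D4:**
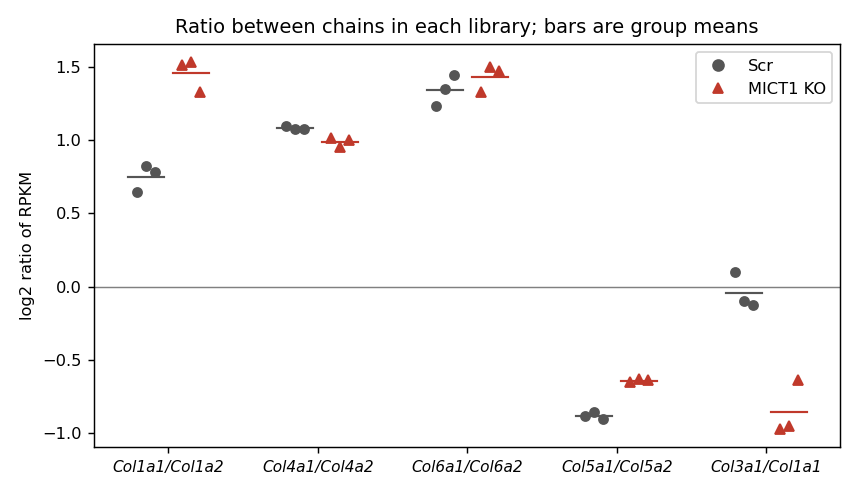
Points are the log2 ratio of the RPKM of 2 chains in each library, circles for Scr and triangles for MICT1 KO, and bars are group means. The Col1a1 to Col1a2 ratio lies between 0.65 and 0.82 in Scr and between 1.33 and 1.53 in MICT1 KO, and the groups of Col6a1 to Col6a2 overlap.

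Other genes that handle collagen were taken from a list of 44 symbols, of which 36 were analysed and 35 tested. Of these 25 rose and 4 fell, beside 28.5% and 28.3% of all genes. The median log2 fold change was 0.43, beside -0.0053 for all genes. At least 2-fold higher were 6, against 7.99% of all genes. The groups did not overlap for 29 of the 35, and for 62.0% of all genes. Of the 12 genes of folding and modification in the endoplasmic reticulum, 11 rose. The largest of these was P3h3, a prolyl 3-hydroxylase family member, at 273, 246 and 211 in Scr against 1041, 1074 and 979.5 in MICT1 KO, with a log2 fold change of 2.09 (SE 0.10, adjusted p = 3.80e-13). Tmem38b, an ion channel of the endoplasmic reticulum that is needed for normal collagen modification in bone, was the exception, at 696, 732 and 745 in Scr against 595, 585 and 555 in MICT1 KO, with a log2 fold change of -0.33 (SE 0.083, adjusted p = 0.00223). Of the 5 genes for the export of the bulky procollagen, 3 rose and Mia2 fell, at 1639, 1652 and 1671 in Scr against 946, 1039 and 1073 in MICT1 KO, with a log2 fold change of -0.70 (SE 0.068, adjusted p = 2.13e-08). Among the further proteinases of propeptide removal, 3 of 4 rose. Furin, which activates proteinases of this step, fell slightly, at 4474, 4498 and 4533 in Scr against 3983, 4057 and 4022 in MICT1 KO, with a log2 fold change of -0.16 (SE 0.051, adjusted p = 0.0105). Adamts2, which cuts the N-terminal propeptide, was at 95.0, 91.8 and 60.0 in Scr against 303, 255 and 258 in MICT1 KO, with a log2 fold change of 1.74 (SE 0.19, adjusted p = 7.68e-08).

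Genes of collagen uptake and breakdown also rose, 6 of 7 tested, beside 28.5% of all genes. One of them, Ctsk, was below the minimum value in every Scr library, at 8.90, 7.42 and 9.16. It was tested only through its MICT1 KO values of 26.7, 25.3 and 23.8, so a rise was favoured in advance. Ctsk is also counted among the 25 genes of the whole list that rose. Mmp13, a collagenase, was at 27.7, 51.9 and 27.5 in Scr against 123, 106 and 134 in MICT1 KO, with a log2 fold change of 1.79 (SE 0.27, adjusted p = 8.11e-06). Pepd, which splits the proline dipeptides left by collagen breakdown, fell, at 354, 376 and 415 in Scr against 314, 253 and 307 in MICT1 KO, with a log2 fold change of -0.39 (SE 0.12, adjusted p = 0.00820), and had an adjusted p of 0.0503 without MICT1 KO 2. Of the 7 collagen receptors and binding proteins tested, 2 were higher and 5 did not pass. Runx2 was the osteoblast marker that rose. Sp7, the other one analysed, had means of 5.87 in Scr and 9.80 in MICT1 KO and was not tested. The 2 summed to 1241 to 1372 in Scr and 1630 to 2041 in MICT1 KO, nearly all of it Runx2.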

How the data were processed

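Total RNA of 6 libraries, 3 Scr and 3 MICT1 KO, was sequenced, and groups and replicate numbers were taken from the labels. Each gene's entry in the deposited table is a normalized signal. Per the methods, reads were aligned with Partek to NCBI38/mm10, and the submitters' processing notes also name STAR and DESeq2. The counting model, annotation and normalization are not given in the sources used here. In each library 88.8% to 90.3% of values under 20 were whole multiples (within 0.01) of a library's smallest step, which was read as 1 read. This was too few to recover counts, so no count model was run. Every value in the table is above 0, so a gene at 0 in a library would not be seen.

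The members and lists were chosen with earlier results of these data known. limma-trend (limma 3.58.1, R 4.3.3) was fitted to log2(value + 1) of the 12507 genes that reached a value of 10 in 3 or more libraries, with Benjamini-Hochberg adjustment over all of them and a threshold of 0.05, and was tested on simulated data. A fold change on this scale understates changes of low genes. RPKM used the longest coding transcript of GENCODE vM21. Sums and chain ratios were compared with exact two-sided permutation tests. In each class, values per library are given for the 3 highest per length in Scr, the 3 largest rises and falls that passed, and members whose call changed, and from the pathway list for the 3 largest changes in each direction. Other members were named for completeness. Alternatives were equal library sums, TMM scaling, pseudocounts of 0.5 and 5, no filter, a filter at a maximum of 4 RPKM, limma-voom, the replicate number as a block and each library left out in turn. Summed shares, chain levels and chain ratios with all annotated exons as length were added after seeing the data. Samples with the same number did not deviate together, so the numbers were not taken as pairs. With 3 libraries per group, an exact test cannot give p below 0.1.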

Additional observations from a re-analysis of the deposited data

How the results depend on the processing

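Of the values of single genes, 645 kept their direction and their side of the threshold in the 14 settings tried. A further 237 values of counts by class, summed shares and chain ratios stayed within 1.5 times the count or kept their direction. The exact tests of shares and ratios cannot go below p = 0.1 in any setting, so their p-values say nothing about stability. A filter at a maximum of 4 RPKM, which tests fewer members, left 1 fibrillar chain lower (3 in the report), 0 basement membrane chains higher (1) and 2 other chains higher (5). Leaving out each library gave 0 to 1 basement membrane chains higher, 0 without Scr 2 or MICT1 KO 2, and 1 to 2 modifying genes lower, 1 without Scr 2. The change of Col3a1, which did not pass, was 0.038 without Scr 1 and -0.12 to 0.038 over all single libraries left out. That of Col17a1, which also did not pass, was -0.13 without Scr 3, -0.10 without MICT1 KO 2 and -0.031 without MICT1 KO 3, and ranged from -0.13 to 0.24 over the libraries left out. A further 11 values of Plod3, Col7a1, Col9a3, Pcolce2 and Pepd no longer passed when a library was left out, as given beside each gene in the report.

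With the replicate number as a block, 21 members rose and 13 fell, as without it, and over all genes 3543 rose and 3512 fell. Deviations of same-numbered Scr and MICT1 KO libraries correlated at -0.024, -0.015 and 0.064, and 2 of the 6 libraries correlated best with their own number, so the samples share only a number. Blocking changed no call of a member. Members with values near 10 rest on few reads, and their folds depend most on the pseudocount.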
